A study of Homo sapiens with 6 samples.

Results

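The positions described here lie on the copies of the ribosomal RNA genes in the human reference genome and on its unplaced contigs, pieces of assembled sequence with no settled place on a chromosome. They were taken as every listed position on a sequence named as an unplaced or random contig, together with those in the window of chromosome 21 where the assembly holds copies of the 45S unit. In that window the listed positions ran from 8206501 to 8446071 (hg38). There were 7065 such positions among 387463 in the study. The table of imbalanced dNTP held 1720 of them among 176343 positions, the table of balanced dNTP held 6424 among 246881, and 1079 were in both. All libraries were made from chromatin-associated RNA of HepG2, a human liver cancer cell line, from which rRNA had been depleted and RNA under 200 nt removed. In 3 biological replicates, each ligated RNA was split and reverse transcribed either with imbalanced dNTP (1 mM dATP, 2 µM of each other dNTP), which makes the enzyme read a 2′-O-methylated (Nm) G, A or C as T, or with balanced dNTP (1 mM dATP, 1000 µM of each other dNTP), which serves as input. Both groups had the same cells and no genetic change, and by design they differed in the dNTP mixture.

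RNA polymerase I transcribes the 45S pre-rRNA as 1 long molecule in the nucleolus. Its external and internal transcribed spacers (5′ETS, ITS1, ITS2 and 3′ETS) are cut out and degraded, and 18S, 5.8S and 28S rRNA remain. The mature rRNAs are among the most heavily 2′-O-methylated RNAs known. Box C/D small nucleolar RNAs guide the methyltransferase fibrillarin to most of these sites, while the spacers are not part of the ribosome.

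Each position was given a place in 45S, counted in bases from the start of the unit RNA45SN5 on chrUn_GL000220v1:105424-118780 in hg38. The 5′ETS spans 3654 bases, 18S 1869, ITS1 1077, 5.8S 157, ITS2 1167, 28S 5070 and the 3′ETS 363. A position was placed when the 25 bases on each side of it matched RNA45SN5 at 95% identity or more over at least 40 bases. The reference holds 5 whole units and 3 partial ones in the regions studied. On chr21 lie RNA45SN1, RNA45SN2, RNA45SN3 and the partial unit with RNA18SP5. Contig chr22_KI270733v1_random holds RNA45SN4 and the partial unit with RNA18SP4, and contig chrUn_GL000220v1 holds RNA45SN5 and the partial unit with RNA18SP3. Of the 7065 positions, 6039 could be placed, all on the transcribed strand, and 26 of these had another base than RNA45SN5.

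The sequences of the positions on which the results turn are given first, in hg38 and 5′ to 3′ on the transcribed strand, with the measured base in capitals. At the first 3, all in 18S-like sequence of contig KI270442v1, the 45S line gives RNA45SN5 around the same place, so that the methylated 18S base can be set beside the contig.
18S Gm867, chrUn_KI270442v1:219438-219478, minus strand: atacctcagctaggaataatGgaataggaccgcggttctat
18S Gm867, 45S places 4501 to 4541: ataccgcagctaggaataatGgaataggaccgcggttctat
18S Am99, chrUn_KI270442v1:220210-220250, minus strand: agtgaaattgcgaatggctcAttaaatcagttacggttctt
18S Am99, 45S places 3733 to 3773: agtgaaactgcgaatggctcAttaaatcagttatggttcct
18S Cm1391, chrUn_KI270442v1:218912-218952, minus strand: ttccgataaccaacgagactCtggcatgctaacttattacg
18S Cm1391, 45S places 5025 to 5065: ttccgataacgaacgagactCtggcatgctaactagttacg
ITS1 place 5886, chr22_KI270733v1_random:173220-173260, plus strand: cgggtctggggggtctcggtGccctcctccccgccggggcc
5′ETS place 1531, chr22_KI270733v1_random:168868-168908, plus strand: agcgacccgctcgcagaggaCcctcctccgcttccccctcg
28S place 10387, chr21:8216319-8216359, plus strand: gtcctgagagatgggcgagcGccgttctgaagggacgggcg
Counted from 1 at the 5′ end of the printed window, the contig differs from RNA45SN5 by G6T around Gm867, by C8T, T34C and C40T around Am99, and by G11C, A35T and G36A around Cm1391. The 41 bases around places 5886, 1531 and 10387 are shown because those positions were among the highest mutation ratios of ITS1, the 5′ETS and 28S. Compared without gaps, these windows differed from RNA45SN5 at 5, 0 and 1 bases. The 1 difference around place 10387 is a T where RNA45SN5 has C.

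Under imbalanced dNTP the largest shares of listed places were in the 5′ETS and ITS1 and few places of 18S were listed outside KI270442v1. In numbers, 28S held 215 of the placed positions, beside 825 in the 5′ETS, 195 in ITS1 and 111 in ITS2. Contig KI270733v1 held 855 of the 1720 positions, the chr21 window 505, KI270442v1 185, GL000220v1 66, GL000195v1 50 and KI270744v1 39. The other 20 were on contigs with fewer than 20 positions each. In the 5′ETS, 17.3% of the 3102 G, A and C places were listed in at least 1 copy, KI270442v1 set aside. The share was 17.2% of 938 places in ITS1 and 6.71% of 1029 in ITS2. It was 0.204% of 1467 places in 18S and 3.82% of 4317 in 28S, and no place of 5.8S or of the 3′ETS was listed.

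Under balanced dNTP the same parts led, with 60.8% of the places in the 5′ETS, 35.2% in ITS1, 26.7% in ITS2, 11% in 28S and 1.77% in 18S. These shares cannot be set against those of imbalanced dNTP, because the tables list by different rules. No imbalanced position had fewer than 3 T reads in every library, whereas 238327 of the 246881 balanced positions did. By that same rule the balanced table would hold 1020 of the members among 8554 positions of the study. The ribosomal copies and contigs then made up 11.9% of the balanced and 0.975% of the imbalanced positions.

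**Figure D1:**
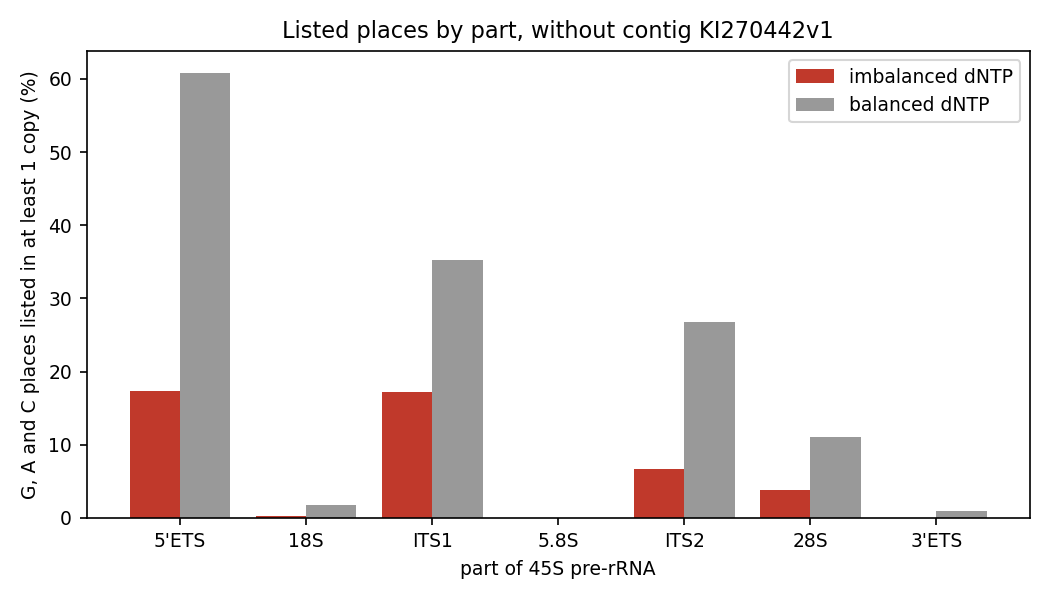
The bars give the percentage of G, A and C places of each part of 45S pre-rRNA (x axis) that were listed in at least 1 genomic copy, for the imbalanced and the balanced dNTP table, with contig KI270442v1 left out. The 5′ETS and ITS1 were at 17.3% and 17.2% under imbalanced dNTP and 18S at 0.204%, and the 2 tables have different listing rules, so heights should be compared within a condition.

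Depth, the number of reads over a position, was uneven along 45S, with the deepest positions in short stretches. The deepest member was place 781 in the 5′ETS on KI270733v1, with 8308, 7200 and 12190 reads in imbalanced replicates 1, 2 and 3 and 24114, 17223 and 23539 in the balanced ones. Over all imbalanced members the lowest depth of the 3 libraries had a median of 34.5 reads. It was 202 on KI270733v1, 57 on KI270442v1, 16 in the chr21 window, 10 on GL000220v1 and KI270744v1 and 9 on GL000195v1. Of all listed depth in the study, members carried 3.57, 3.58 and 4.6% in imbalanced replicates 1, 2 and 3 and 9.08, 9.72 and 10.2% in the balanced ones.

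The copies of 45S are nearly identical, and reads could align to several of them. For each stretch of 51 bases in RNA45SN5 the genome held a median of 8 exact matches, apart from the 3′ETS with 5. Of the 1401 imbalanced positions placed in 45S, 604 had a window of 51 bases that occurs once in the genome and 458 had one that occurs more than 4 times. Where several copies match, the split of reads between them is uncertain, and the level of a single copy cannot be read from its depth.

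**Figure D2:**
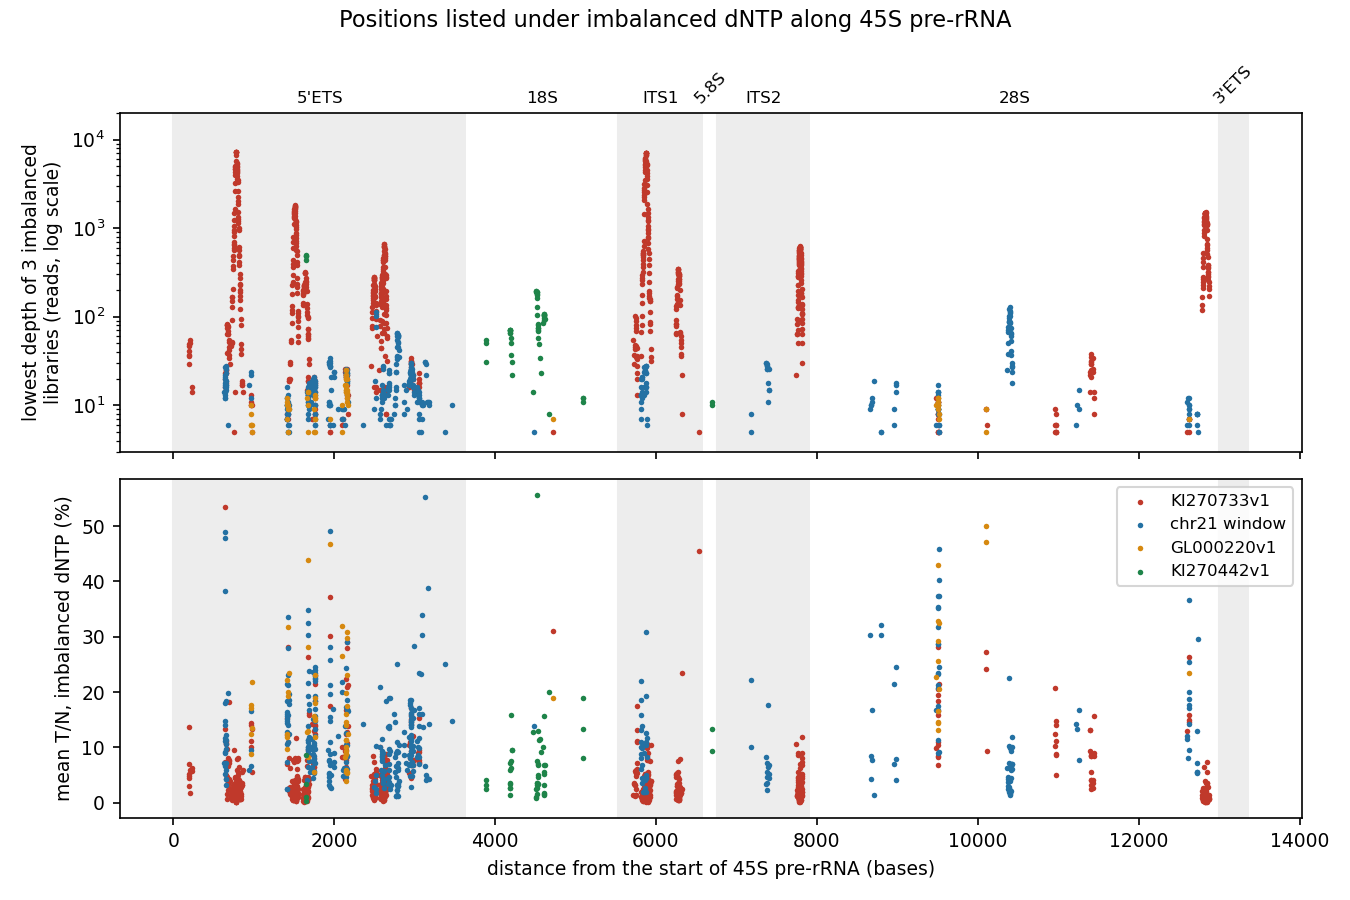
Each point is a position listed under imbalanced dNTP and placed in 45S pre-rRNA, coloured by contig, at its distance from the start of 45S (x axis, bases), with the lowest depth of the 3 libraries on a log scale above and the mean mutation ratio below. The deep stretches of KI270733v1 near places 781 and 5886 have ratios of at most 10.7% at a depth of 50 or more, while the highest ratios are at shallow positions and on KI270442v1.

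The mutation ratio is the number of reads with T over the depth. Summed over the 1079 members in both tables, it was 2.35, 2.49 and 2.29% in imbalanced replicates 1, 2 and 3 and 0.16, 0.157 and 0.167% in balanced replicates 1, 2 and 3. It was higher under imbalanced dNTP in 3 of 3 pairs, by 2.21 percentage points, and the groups did not overlap. The exact paired permutation test gave p = 0.25 (two-sided), the smallest that 3 pairs allow. Positions listed under imbalanced dNTP had at least 3 reads with T in a library, those under balanced dNTP at least 1 in sum. This selection favours a higher ratio under imbalanced dNTP, so the direction was in part fixed in advance. Mismatches to bases other than T were at 0.31% ± 0.00671 and 0.342% ± 0.0151 (SD, n = 3) in the imbalanced and balanced libraries.

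Over the other 34682 positions of the study in both tables the ratio was 3.53% ± 0.106 under imbalanced and 0.213% ± 0.00872 under balanced dNTP (SD, n = 3). Members were lower than these positions in each imbalanced library, with differences of -1.14, -1.17 and -1.16 percentage points in replicates 1, 2 and 3 (exact paired permutation test, two-sided p = 0.25). Depth also differed between members and other positions, and its part in this difference was not tested.

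The summed ratio was compared between the parts of 45S with KI270442v1 set aside. It was 2.47% ± 0.108 in the 5′ETS, 2.47% ± 0.0887 in ITS1, 2.15% ± 0.0816 in ITS2 and 1.68% ± 0.271 in 28S under imbalanced dNTP. The balanced values were 0.18, 0.122, 0.137 and 0.142%. By contig, the ratio was 2.23% ± 0.0917 on KI270733v1, 8.59% ± 0.379 in the chr21 window and 18.8% ± 1.13 on GL000220v1 under imbalanced dNTP, and 0.131, 3.32 and 7.3% under balanced dNTP (SD, n = 3). Mismatches to other bases under balanced dNTP were at 0.307, 4.26 and 3.36% there. At shallow positions a listed position must have a high ratio, since a single library needs 3 T reads, so ratios of contigs with unlike depth are not on 1 scale.

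Position by position, 661 of 980 tested members had a higher mutated share under imbalanced dNTP and 3 a lower one by edgeR's quasi-likelihood test (Benjamini-Hochberg adjusted p under 0.05 over all 32284 tested positions of the study). This is 67.4% of the members beside 73.9% of all tested positions for the higher calls, and for the lower calls the background was 0.0558%. The median log2 difference was 3.32 over members and 3.94 over all tested positions. Only positions with at least 3 reads with T in an imbalanced library could be tested. This favours higher calls and a positive median, for members and for the whole study. Higher calls made up 95.7% of 94 tested positions in ITS2 of KI270733v1, 88.6% of 140 in its ITS1, 84% of 75 in its 28S and 80.1% of 381 in its 5′ETS. They made up 25.6% of 246 in the chr21 window, 5 of 16 on GL000220v1 and 2 of 12 on KI270442v1. Depth differed between these groups. Over imbalanced positions the lowest depth had a median of 165 to 350 reads in these parts of KI270733v1, 16 in the chr21 window and 10 on GL000220v1. On KI270442v1 the lowest balanced depth was at most 37. With a depth of at least 50 required, 563 of 626 members and 22348 of 24432 positions of the study were higher. The part of depth in the shares by contig and part was not tested.

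Another rule, made of the study's criteria for a site other than the one on the spike-in background, which was not applied here, was passed by 522 members. It asks in all 3 replicates for a depth of at least 10, at least 3 reads with T and a ratio over 3 times that of the balanced library of the same replicate. A position that the balanced table did not list was taken to have no T there, so that the input could not fail it. This was so for 118 of the passing positions, and 404 were in both tables. Those 522 were 35.7% of the 1464 members with enough depth, beside 26.7% of such positions in the whole study. At a lowest depth from 10 reads to below 50, 11.9% of 665 members passed, beside 5.58% of all positions. From 50 reads to below 200 the shares were 36% and 38.8%, and at 200 reads or more 70.4% and 82.9%. The members' share was thus above that of the study only in the shallowest class, and the classes were not tested against each other.

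By contig, 391 of the 522 were on KI270733v1, 67 on KI270442v1, 56 in the chr21 window, 7 on GL000220v1 and 1 on KI270744v1. In that order, these were 48.8, 39.4, 14, 16.7 and 5% of the contig's positions with enough depth. By part, 232 were in the 5′ETS, 87 in ITS1, 62 in ITS2, 62 in 28S, 15 in 18S and 64 in none. Here the shares were 31.7, 46, 56.9, 41.1, 30.6 and 27.5%, beside 26.7% in the whole study. All 15 in 18S were on KI270442v1. Neither 5.8S nor the 3′ETS held any. The bases of the 522 were 47.7% G, 6.9% A and 45.4% C, beside 43.7, 14.2 and 42.2% among the G, A and C of 45S. Both neighbours were U at 5.56% of them, at 6.9% of the 942 listed positions of enough depth that did not pass and at 2.51% of the G, A and C of 45S. Among passing positions that share was 14.9% on KI270442v1 and 3.58% on KI270733v1. Most ratios were low, with a median of 3.57%, and only 145 of the 522 had at least 5% in every imbalanced library.

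Passing places were crowded. Outside KI270442v1, 389 distinct places of 45S passed, and 311 of them, or 79.9%, lay in 11 stretches of 100 places. These stretches were picked for holding 10 or more passing places, which raises that share. Places 5801 to 5900 of ITS1 held 46 among 69 listed places, and places 12801 to 12900 near the 3′ end of 28S 44 among 61. Places 701 to 800 of the 5′ETS held 36 among 54, and places 1501 to 1600 of the 5′ETS 35 among 44. Places 7701 to 7800 of ITS2 held 30 among 41. Listed places were thus crowded there too. The greatest lowest depth in the 11 stretches was between 297 and 7200 reads. At 66 places, 2 or more copies had 50 reads or more in all imbalanced libraries. All copies passed at 32 of these, none at 8 and some at 26, and the ratios of the copies at a place lay apart by a median of 1.07 percentage points and at most 6.68.

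The highest ratios at a depth of 50 or more are described by part, with each place represented by its deepest copy. In the 5′ETS, the long leader that is removed before 18S is made, the highest was the C at place 2784 on RNA45SN3 (chr21:8391814). It had 24 of 107, 21 of 65 and 33 of 162 reads with T under imbalanced dNTP and 1 of 77, 1 of 47 and 3 of 78 under balanced dNTP. The groups were apart in all libraries, and edgeR gave a log2 difference of 3.51 (adjusted p = 6.06e-06). The next base, place 2785, was at 11% ± 1.74 (SD, n = 3; edgeR log2 difference 2.81, adjusted p = 0.00688), and this call was lost without any 1 of the replicates. The C at place 1531 on KI270733v1 (position 168888), printed above, had far more reads. It had 78 of 669, 73 of 568 and 102 of 962 reads with T under imbalanced dNTP and 7 of 2731, 6 of 1836 and 9 of 2455 under balanced dNTP, a log2 difference of 5.35 (edgeR adjusted p = 6.11e-86).

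In ITS1, the spacer between 18S and 5.8S, the leading positions were at 1 short site on KI270733v1. The G at place 5886 had 529 of 4714, 474 of 4517 and 739 of 7028 reads with T under imbalanced dNTP and 13 of 11949, 8 of 8917 and 12 of 11200 under balanced dNTP. That is 10.7% ± 0.414 against 0.102% ± 0.0106 (SD, n = 3), a log2 difference of 6.85. The next base, the C at place 5887, was at 9.9% ± 0.312, and the C at place 5895 at 8.98% ± 1.01 (edgeR log2 differences 6.58 and 6.73). All 3 were below 0.2% in every balanced library.

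In ITS2, the spacer before 28S, the G at place 7816 was at 8% ± 2.26 and was not in the balanced table. The neighbours at places 7790 and 7791 were at 6.91% ± 0.61 and 6.32% ± 0.337, with balanced ratios of 0.686% and 0.0965% (SD, n = 3; edgeR adjusted p = 3.24e-36 and 5.86e-47). Copies differed most at place 7813, where one was at 5.12% and the other at 11.8%, and both passed.

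In 18S, the RNA of the small ribosomal subunit, the 3 leading positions were all on KI270442v1. Besides Gm867, described with that contig, the G at place 4198 had 10 of 65, 9 of 57 and 15 of 90 reads with T and was not in the balanced table. Place 4603, a G, was at 15.6% ± 1.7 under imbalanced and 7.21% ± 7.74 under balanced dNTP (SD, n = 3), where the groups overlapped.

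In 28S, the RNA of the large ribosomal subunit, the leading positions lay within 10 bases of each other on RNA45SN2 in the chr21 window. The G at place 10387 had 21 of 92, 25 of 88 and 21 of 127 reads with T under imbalanced dNTP and 0 of 26, 1 of 20 and 0 of 37 under balanced dNTP (edgeR log2 difference 3.96, adjusted p = 0.00215; lost without replicate 1 or 3). Place 10390, also a G, was at 10.2% ± 2.14 and did not pass the edgeR test (adjusted p = 0.0748). Place 10395, another G, was at 9.86% ± 2.27 (edgeR adjusted p = 0.046, lost without any 1 of the replicates and with DESeq2). Within the same 10 bases, the C at place 10393 went the other way, at 1.94% ± 1.2 against 9.16% ± 5.46 (edgeR log2 difference -2.39, adjusted p = 0.0485). None of these places is among the documented Nm positions of 28S used here.

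**Figure D3:**
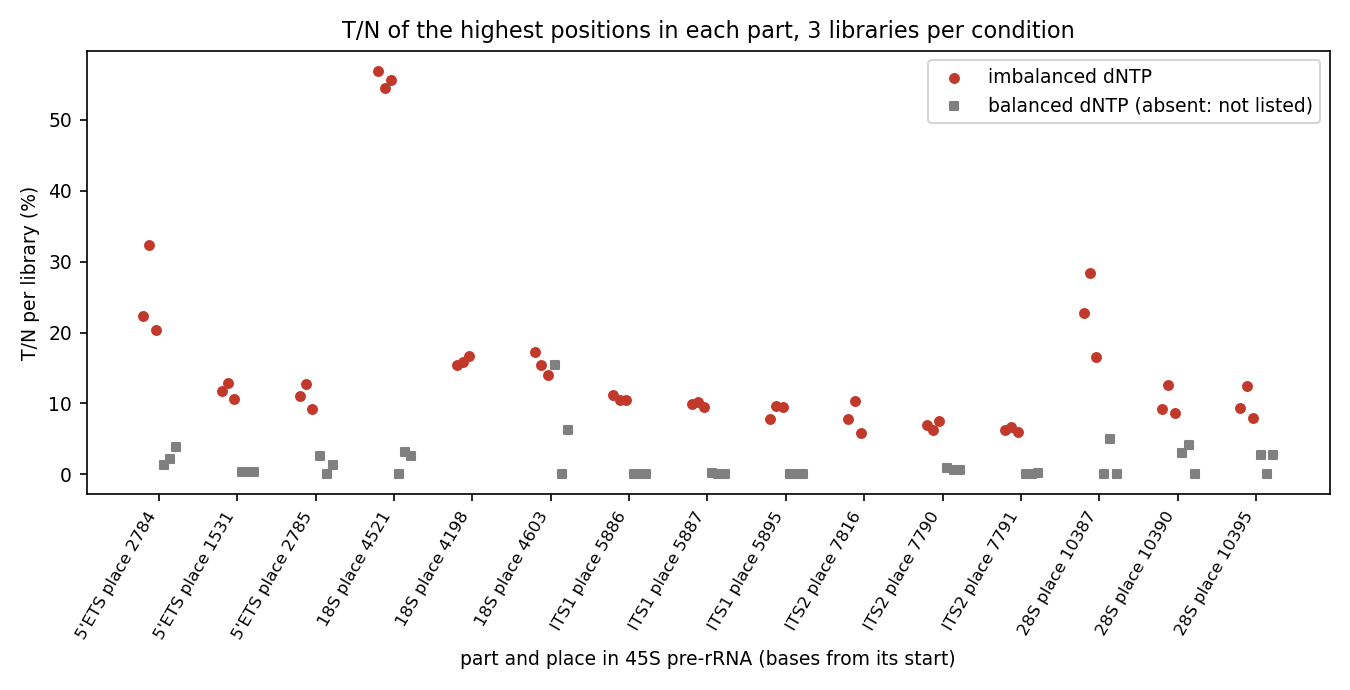
The points give the mutation ratio in each of 3 imbalanced (red circles) and 3 balanced (grey squares) libraries at the 3 highest positions of each part of 45S with a depth of at least 50 under imbalanced dNTP, each place represented by its deepest copy. Positions with no squares were not in the balanced table. The groups are apart at all of them that have both, except place 4603 in 18S, where a balanced library reached 15.4%, within the imbalanced range of 14 to 17.3%.

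Contig KI270442v1 stood apart from the 45S units. Its 185 imbalanced positions lay between 217309 and 222060 on the minus strand, in a diverged copy of the 45S unit. The stretch from the end of the 5′ETS to ITS2 matched RNA45SN5 at 83.2% identity and a stretch of the 5′ETS at 80.2%. Over 1855 aligned places of 18S the identity was 92.2%. At the usual 95% identity 56 of the 185 could be placed, and at 85% identity, which is used for this contig from here on, 171. Of these 133 were in 18S, 36 in the 5′ETS and 2 in 5.8S, and 180 of the 185 had a window of 51 bases that occurs once in the genome. In all, 67 positions passed the criteria, 43 of them in 18S. Of the 185 positions, 158 were not in the balanced table, so the input could not fail them.

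The highest ratios of all members were here. Of the 10 highest at any depth, a list chosen after the values were seen, 8 were on KI270442v1, 8 passed and 8 were not in the balanced table. The first of them was in the chr21 window, the G at 8252219, with 17 of 19, 14 of 14 and 28 of 28 reads with T, at a place where RNA45SN5 has T. The A at position 220230, which corresponds to Am99 of 18S, had 49 of 53, 46 of 48 and 52 of 56 reads with T under imbalanced dNTP, or 93.7% ± 1.85 (SD, n = 3). The G at position 219458, which corresponds to Gm867, had 111 of 195, 97 of 178 and 129 of 232. Under balanced dNTP it had 0 of 37, 1 of 32 and 1 of 39 reads with T, and edgeR gave a log2 difference of 5.76 (adjusted p = 1.19e-13). The C at position 218932, which corresponds to Cm1391, had 7 of 28, 4 of 18 and 5 of 21, or 23.7% ± 1.39. All 3 passed the criteria. Am99 and Cm1391 were not in the balanced table, so their balanced ratio is not known from it.

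Few documented sites were listed. The mature rRNAs have 105 Nm positions on the list used, which was entered from general knowledge of the field, and the reference base was the right one at all 105. Of these 84 are at G, A or C, 29 of them in 18S, 54 in 28S and 1 in 5.8S. No copy other than KI270442v1 listed a documented position under imbalanced dNTP, and none of the 54 in 28S was listed in either table. Of all G, A and C places, 0.204% in 18S and 3.82% in 28S were listed under imbalanced dNTP outside KI270442v1. Under balanced dNTP the shares were 1.77% and 11%, and documented places were not tested against these shares. On KI270442v1 there was 1 more, Cm797, at depths of 5 to 8 with 3 of 8, 0 of 5 and 2 of 8 reads with T. The 4 documented positions had ratios from 20.8% to 93.7% and a median of 39.7%, beside a median of 6.73% over the other 132 positions placed in 18S. Documented positions below the 3 T reads of the listing rule are not in this median. Gm644, Gm683 and Gm1490 were listed on KI270442v1 under balanced dNTP, at 9.72, 11.7 and 5.56%, and not under imbalanced dNTP. These ratios rest on 0 to 2 reads with T per library at depths of 6 to 16. In the chr21 window Am99 and, at 85% identity, Am484 were likewise listed only under balanced dNTP.

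A neighbouring base was listed at Gm867 and at Am99. The G beside Gm867 had 1 of 186, 3 of 163 and 5 of 224 reads with T, or 1.54% ± 0.887. The C beside Am99 was at 10.1% ± 4.72 (SD, n = 3). Other high ratios on the contig were at places that are not on the documented list. Among the 10 highest positions, 8 could be placed at 85% identity, and 5 of these have another base in RNA45SN5 than the listed copy. The C at position 220217, with 11 of 11, 10 of 11 and 15 of 16 reads with T, lies where 18S itself has T (T21C in a window of 41 bases centred on it). The A at 218917 (G21A), at 90.3% ± 9.62, and the G at 219006 (A21G), at 67.6% ± 7.42, lie where 18S has another base but not T. Over the whole contig 164 of the 171 placed positions have the base of RNA45SN5, 58 of which passed, and 7 have another, 6 of which passed.

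**Figure D4:**
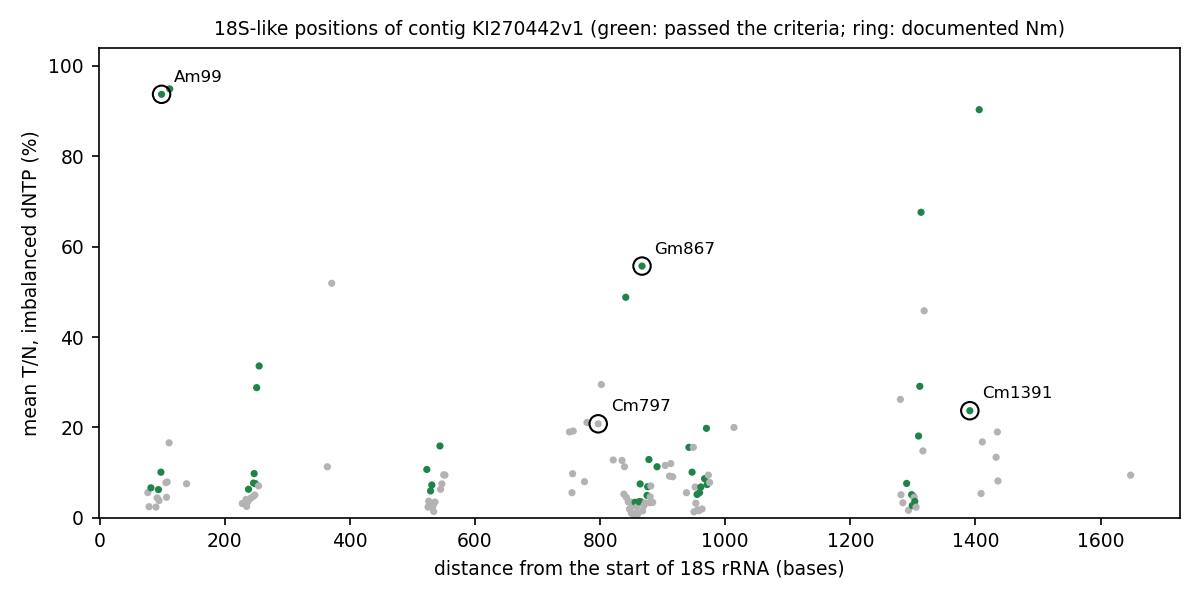
Each point is a position of contig KI270442v1 that is placed in 18S rRNA at 85% identity, at its distance from the start of 18S (x axis, bases) and its mean mutation ratio in 3 imbalanced libraries (y axis, percent). Green points passed the criteria, grey ones did not, and rings mark the 4 documented Nm positions, at 93.7% (Am99), 55.7% (Gm867), 23.7% (Cm1391) and 20.8% (Cm797).

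The depth of this contig also went opposite to that of the others. At the 27 positions in both tables, its summed depth was 9.7, 15.3 and 16.7 times as high under imbalanced as under balanced dNTP in replicates 1, 2 and 3, and all 27 positions were deeper under imbalanced dNTP. On KI270733v1 the ratio was 0.256, 0.306 and 0.415 over 724 positions, and over all 35761 positions of the study in both tables it was 0.491, 0.635 and 0.695. In the chr21 window it was 0.592 ± 0.122 and on GL000220v1 0.597 ± 0.0707 (SD, n = 3), like the whole study. The direction was the same in all 3 pairs for each contig. In 28S of the chr21 window the summed ratio was above 1 as well, at 2.18 ± 0.504 over 26 positions, 15 of which were above 1.

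The bases of the contig were also counted against 18S. Of the 144 differences between the contig and 18S, 61 put T on the contig and 7 put T in 18S. The part of read placement in the ratios and depths of KI270442v1 was not tested. Mismatches to bases other than T were also uneven there, at 0.459% ± 0.0944 under imbalanced and 7.61% ± 1.07 under balanced dNTP (SD, n = 3).

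**Figure D5:**
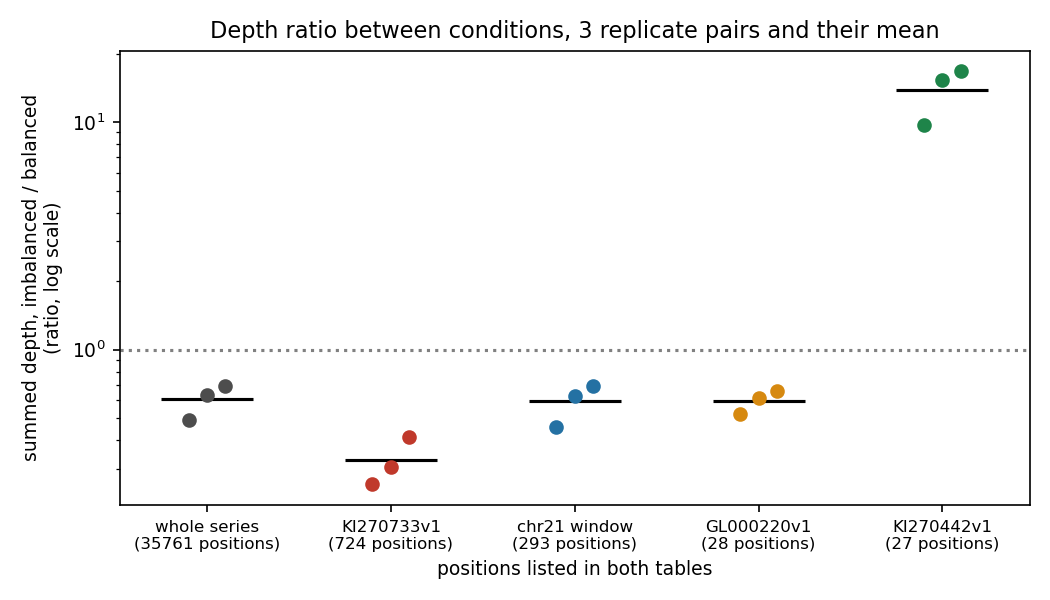
The points give, for each of 3 replicate pairs, the summed depth under imbalanced dNTP over that under balanced dNTP (y axis, log scale) at positions in both tables, for the whole study and 4 contigs, and the bars give their mean. KI270442v1 lies between 9.7 and 16.7, and KI270733v1 between 0.256 and 0.415.

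Some positions had T in a large share of reads under balanced dNTP. There were 53 members with a balanced ratio of at least 20%, or 0.825% of the balanced members, beside 1.17% of all balanced positions of the study. Of the 53, 36 were in 45S, at 20 places, and 18 of the 53 were also listed under imbalanced dNTP. The G at place 640 of the 5′ETS was the clearest, with 4 copies listed in both tables. On RNA45SN2 it had 37 of 58, 28 of 41 and 29 of 39 reads with T under balanced and 9 of 22, 7 of 14 and 10 of 19 under imbalanced dNTP (edgeR adjusted p = 0.172). On RNA45SN4 the ratios were 64.4% ± 7.95 under balanced and 53.4% ± 13.8 under imbalanced dNTP, on RNA45SN3 46.2% ± 3.63 and 48.9% ± 13.1, and on the unit of RNA18SP5 29.2% ± 4.02 and 38.3% ± 10.2 (SD, n = 3). None of the 4 copies differed between mixtures in the edgeR test. In 28S, the G at place 10100 was at 20% or more in 5 copies under balanced dNTP, from 33.5% ± 5.55 on the unit of RNA18SP4 to 58.5% ± 10.5 on RNA45SN5 (SD, n = 3). In the balanced table the highest ratio of all was the C at position 66910 of contig GL000195v1, with 13 of 14, 7 of 7 and 10 of 11 reads with T.

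Positions called lower by edgeR were the C at place 10393 given above and 2 more. The G at place 2489 of the 5′ETS on RNA45SN4 was at 5.17% ± 1.19 under imbalanced and 8.17% ± 0.847 under balanced dNTP (log2 difference -0.62, edgeR adjusted p = 0.0396). The A at position 219471 of KI270442v1 was at 0.774% ± 0.57 and 9.17% ± 1.04 (log2 difference -3.77, edgeR adjusted p = 0.0118; SD, n = 3). All 3 calls were lost without any 1 of the replicates, that at place 2489 also with DESeq2 and that at place 10393 also without the filter on depth.

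Of the 118 positions with enough depth that could not be placed in 45S, KI270442v1 set aside, 12 passed, or 10.2%. The C at position 168995 of KI270733v1 had 44 of 495, 26 of 311 and 119 of 1319 reads with T and a balanced ratio of 0.151% ± 0.0522 (log2 difference 5.98, edgeR adjusted p = 3.38e-102). The G at chr21:8252691 was at 8.39% ± 1.67 against 0.815% ± 0.348 (log2 difference 3.31, edgeR adjusted p = 2.54e-06). Both lie within 45S units. The C is between positions at places 1622 and 1659 of the 5′ETS, and the G is at place 2493 at 85% identity. On GL000195v1 none of 20 positions with enough depth passed, at a lowest depth of at most 14 reads, where 5.58% of the study's positions from 10 reads to below 50 did. On KI270744v1 1 of 20 did, the G at position 3610, with 3 of 19, 7 of 18 and 3 of 30 reads with T. Of the remaining 9 contigs, 3 had no listed position under imbalanced dNTP, the others had between 1 and 7 each, and none passed.

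Hepatocyte genes were checked for the label of the cells. Under imbalanced and balanced dNTP, 806 and 509 positions were listed in ALB (albumin), 6226 and 3276 in APOB, 1122 and 690 in AFP, 242 and 306 in SERPINA1 and 6 and 46 in APOA1. TTR had 3, all under balanced dNTP, and FGB none. The lymphocyte genes PTPRC and CD3E and the fibroblast gene COL1A1 had none.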

How the data were processed

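Nm-mut-seq of chromatin-associated RNA from HepG2 cells was measured in 3 replicates with imbalanced and balanced dNTP. The deposited values are raw counts: for each listed position and strand, the reads with A, C, G and T in each library. To make them, the authors used Cutadapt for adapter trimming and BBMap for collapsing reads by unique molecular identifiers, mapped reads to hg38 with TopHat2, which reported up to 4 alignments, and counted bases with JACUSA. The caller's score was not used, and no library was pooled. Depth summed over the listed positions was 17063930 to 22485865 under imbalanced and 22974020 to 34367262 under balanced dNTP. A read counts there at each listed position it covers, so these are not numbers of reads. The precision of a ratio depends on the depth of its position.

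Members, lists and tests were chosen with earlier results of these data known. Positions were placed in 45S with blastn 2.17.0 against RNA45SN5, whose coordinates and those of the other units come from RefSeq, after their sequence had been checked in hg38. edgeR 4.0.16 (R 4.3.3) served to test mutated against unmutated counts over 32284 positions of the study in both tables, each covered by 10 or more reads in all 6 libraries, with effects of library, replicate block and dNTP. On simulated data for this comparison with 32284 positions, 57.8% of 102 16-fold and 99% of 98 64-fold changes were recovered. These counts were drawn binomially, with no added variation between replicates and few changed positions, so the shares need not hold for the real data. The replicate number pairs libraries because 1 ligated RNA was split. At 626 members with a depth of at least 50, deviations of log2 depth from the group mean correlated at 0.18, 0.24 and 0.09 within pairs 1, 2 and 3. Between libraries of different number they correlated at -0.21 to 0.08. For the log2 mutation ratio the values were 0.01, 0.04 and 0.03 within pairs and -0.04 to 0.01 between different numbers. Identical counts in a pair of replicates occurred at no more than 0.581% of members. The methods' further criterion, a ratio above the spike-in background, was not applied. Named positions were the 3 highest mean ratios at a depth of at least 50. They were taken in each part, and per contig among positions not placed in 45S. The documented position with the highest ratio and the highest balanced positions were named too. Others named are said to have been chosen afterwards or are calls of 5 or fewer. Alternatives, with DESeq2 1.42.0 and Fisher's exact test among them, changed thresholds, input, placement and replicates. Python 3.11.15 was used with scipy 1.17.1, pandas 2.3.3, matplotlib 3.10.9 and numpy 2.4.6.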

Additional observations from a re-analysis of the deposited data

Results flagged for a closer look

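The depth under imbalanced over balanced dNTP went in opposite directions on 2 contigs. Its mean over the 3 replicate pairs was 13.9 on KI270442v1 and 0.326 on KI270733v1, with every pair above 1 on the first and below 1 on the second. The difference was not tested.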

How the results depend on the processing

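The number of members passing the criteria, 522, lay between 363 and 546 with a depth of 20 or 50, at least 5 reads with T, 5 times the input, a summed input, only positions of the balanced table or each place of 45S counted once. It fell to 145 with a ratio of at least 0.05 and to 75 with at least 0.1 in every library, and was 580 to 679 when 1 replicate was left out, since fewer replicates then had to pass. The count of positions higher by edgeR, 661 of 980 tested, was 736 without the replicate block and 661 with DESeq2. It was 460 to 513 without 1 replicate and 329 with Fisher's exact test required in all 3 replicates. Over all 32284 tested positions of the study, the main count was 23850. In the same order, the alternatives there gave 26909, 24562, 17763 to 18915 and 13964. Without the filter on depth, 651 of 1079 members and 23632 of 35761 positions of the study were higher. At a depth of at least 50 these were 563 of 626 and 22348 of 24432. The cause of these changes was not tested. The summed ratio differed by 2.08 to 4.55 percentage points under all alternatives, with p = 0.1 in the exact unpaired permutation test without the replicate block (the smallest it allows) and p = 0.5 in the exact test without 1 replicate. At 100% identity 3833 positions could be placed in 45S, at 85% 6697 and with 50 bases on each side 6218. Documented positions listed under imbalanced dNTP numbered 1 at 95% identity and 4 at 85% identity, an alternative chosen after seeing the data. Within 1 base of a documented position, 2 bases were listed at 95% identity, both at Gm867. The balanced table held 1020 members by the listing rule of the imbalanced one, also chosen afterwards. At named positions the edgeR result kept its side of the threshold in 138 values, while 23 values at 7 positions lost the call and 1 gained it, and no direction of a called position reversed. Depth limits the chr21 window, GL000220v1 and the small contigs most.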
